A study of Mus musculus with 6 samples.

Results

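The 10 genes described here encode heat shock chaperones of mouse CD4 T cells, namely Hspa1a, Hspa1b, Hsph1, Hspa8, Dnajb1, Dnaja1, Hsp90aa1, Hsp90ab1, Hspd1 and Hspe1. They are 10 of 54532 gene rows, and they were picked by name after Hspa1a, Hspa1b and Hsph1 had been seen to differ between sets of libraries with different library codes. All 10 passed the filter on low values, which asked for an average of 1 or more across libraries. RNA was sequenced from 3 samples labelled KO (KO 1, KO 4 and KO 5, genotype iCD4-PRMT5 delta/delta) and 3 labelled WT (WT 1, WT 2 and WT 4, genotype iCD4-PRMT5fl/fl). The cells of all 6 were taken from C57BL/6 mice, from lymph nodes and spleen. The WT samples carry floxed alleles of Prmt5, the gene of a protein arginine methyltransferase, and the KO samples deleted ones. What drives the deletion is not spelled out in the labels. The labels of both groups state anti-CD3/CD28 treatment for 48 h, whereas the sample titles carry the word rest, so that the activation state is unclear and shared. Library codes place KO 1, WT 1 and WT 2 in series 22 and KO 4, KO 5 and WT 4 in series 24. The labels do not say what a library series is.

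Heat shock proteins bind unfolded or newly made proteins and keep them from aggregating. Hsp70 proteins do so in cycles of ATP hydrolysis, which J-domain proteins start and nucleotide exchange factors such as Hsp110 end. Hsp90 proteins hold kinases, receptors and transcription factors in a form that can be activated, and the mitochondrial Hsp60 and Hsp10 proteins form a folding chamber. Many of these genes are induced by the transcription factor HSF1, which binds heat shock elements, arrays of GAA units in alternating orientation, after heat, proteotoxic agents or other stress.

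Start-site windows were examined because these genes are textbook HSF1 targets. RefSeq windows (build GRCm38.p6) of 300 bases, 250 before and 50 from the transcript start, were at hand for 7 of the 10 genes, in 12 windows. They were searched on both strands for a 2-unit element, GAANNTTC or TTCNNGAA, and for a 3-unit element, GAANNTTCNNGAA or TTCNNGAANNTTC. Each 3-unit element holds 2-unit elements within it. Of the 7 genes, 6 held a 2-unit element and 3 a 3-unit element, whereas 17.0% and 0.662% of all 27025 genes with such windows did, and 15.1% and 0.603% of all 32851 windows. Dnajb1 held neither in its 2 windows. Only exact matches inside the windows were sought, so that the lack of a match does not show the lack of an element. The 7 genes are not separate sequences, since Hspa1a and Hspa1b are nearly identical here and Hspd1 and Hspe1 share an element. Because they were examined as known HSF1 targets, nothing is read from the comparison with all genes. The 250 bases before the start are shown for 4 genes, all 5′ to 3′ on the gene's own strand, with 2-unit elements in capitals. They lie at chr17:34972157-34972406 (minus strand), chr17:34959239-34959488 (minus strand), chr5:149636337-149636586 (minus strand, the first of its windows) and chr1:55087898-55088147 (plus strand).
Hspa1a: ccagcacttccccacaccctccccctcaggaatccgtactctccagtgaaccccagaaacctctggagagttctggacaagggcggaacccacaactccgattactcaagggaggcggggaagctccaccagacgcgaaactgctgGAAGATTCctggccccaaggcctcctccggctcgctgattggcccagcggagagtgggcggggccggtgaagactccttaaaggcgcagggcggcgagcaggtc
Hspa1b: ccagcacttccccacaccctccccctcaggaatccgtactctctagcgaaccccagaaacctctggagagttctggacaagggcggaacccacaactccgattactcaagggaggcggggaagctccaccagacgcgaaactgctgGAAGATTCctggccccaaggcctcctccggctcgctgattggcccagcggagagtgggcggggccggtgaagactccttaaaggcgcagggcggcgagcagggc
Hsph1: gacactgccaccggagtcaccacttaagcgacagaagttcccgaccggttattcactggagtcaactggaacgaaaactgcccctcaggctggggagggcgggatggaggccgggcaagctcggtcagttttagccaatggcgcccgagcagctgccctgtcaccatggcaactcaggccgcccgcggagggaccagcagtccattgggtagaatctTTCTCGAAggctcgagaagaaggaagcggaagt
Hspe1: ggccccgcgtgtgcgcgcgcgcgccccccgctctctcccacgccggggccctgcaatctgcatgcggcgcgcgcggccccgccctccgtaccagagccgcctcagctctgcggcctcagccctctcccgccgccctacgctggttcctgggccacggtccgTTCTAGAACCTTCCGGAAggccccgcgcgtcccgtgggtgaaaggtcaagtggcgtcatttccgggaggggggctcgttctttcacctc
The Hspa1a and Hspa1b windows were identical at 296 of 300 bases and held the same element, GAAGATTC, at positions 147 to 154, counted from 1 at the 5′ end of the window. The differences, with the base of Hspa1a first, were C44T, T47C, T249G and C276T. Hspe1 carried a run of 4 alternating units, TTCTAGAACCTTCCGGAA, at positions 162 to 179. The second window of Hspd1 holds the same DNA on the other strand, since Hspd1 and Hspe1 start next to each other in opposite directions. Besides the element in capitals above, Hsph1 had a run of 3 units, TTCTGGAAAGTTC, at positions 287 to 299, after the transcript start. Dnaja1 had 1 element, at positions 127 to 134 of 1 of its 3 windows. These matches describe the letters and do not show binding.

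**Figure D1:**
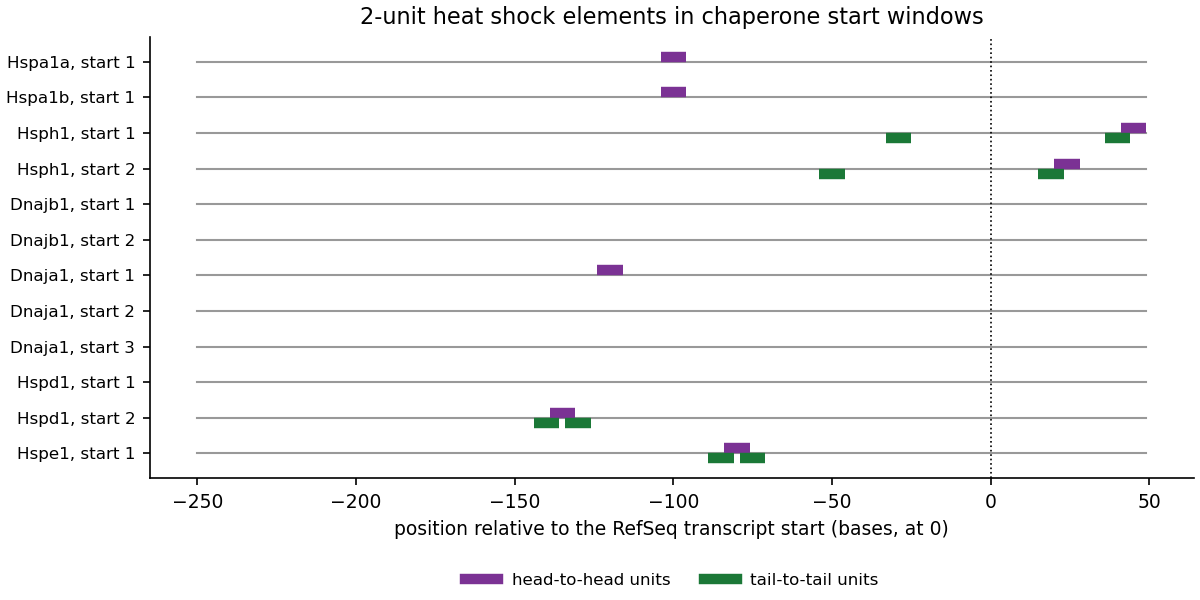
Positions of 2-unit heat shock elements (purple, head-to-head units; green, tail-to-tail units) in 12 RefSeq start windows of 7 chaperone genes, in bases from the transcript start at 0 (dotted line). The same element sits at the same place in Hspa1a and Hspa1b, and overlapping elements form runs in Hsph1, Hspd1 and Hspe1.

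Values are deposited robust FPM, sequenced fragments of a gene scaled by robust size factors. Sequencing depth is unknown. Every step of 0.1 between 0.1 and 2.0 was occupied in every library, so that a fragment was worth about 0.1 FPM or less if whole fragments were counted. The lowest value of a chaperone, 5.6 FPM of Hspa1a in WT 4, then rests on about 56 fragments or more. As a check of the labels, Prmt5 measured 24.4, 23.8 and 21.5 FPM in KO 1, KO 4 and KO 5, against 34.9, 41.0 and 43.9 FPM in WT 1, WT 2 and WT 4. The groups did not overlap, and the log2 change of -0.78 (SE 0.137) did not pass over all genes (limma adjusted p = 1). In WT 1, receptor genes of the olfactory and vomeronasal families, which T cells are not known to use, had 0.300 FPM per kb, where the remaining libraries had 0.0145 to 0.0838. Summed FPM of 10 T cell markers, Cd4 among them, ranged from 2395 to 2998 over the libraries, and that of 12 myeloid markers from 198.4 to 1227. In bulk samples fewer cells of a type and less RNA per cell cannot be told apart.

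The inducible Hsp70 genes had high values in the 3 libraries of series 22 and low ones in the 3 of series 24, in both genotypes. Hspa1a (ENSMUSG00000091971.3, GRCm38 chromosome 17, 34969190 to 34972156, minus strand, a single exon) measured 105.9, 126.3 and 61.9 FPM in KO 1, WT 1 and WT 2, against 6.0, 6.6 and 5.6 FPM in KO 4, KO 5 and WT 4. The series did not overlap, and the lowest value of series 22 was 9.38 times the highest of series 24. Hspa1b (ENSMUSG00000090877.3, chromosome 17, 34956436 to 34959238, minus strand, a single exon) measured 236.7, 249.3 and 133.2 FPM in KO 1, WT 1 and WT 2, against 11.5, 11.8 and 12.7 FPM in KO 4, KO 5 and WT 4. Its mean of 206.4 ± 63.7 FPM in series 22 (SD, n = 3) was 17.2 times that of series 24, and for Hspa1a the ratio of means was 16.2. This is the contrast on which the genes were chosen, so that it is given as a description with no test. Over all 14944 genes tested, Hspa1b and Hspa1a ranked 1 and 2 by the series difference on the log2 scale, and a ratio of means of 10 or more was found for 0.0268% of genes, 4 in all.

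The division of reads between the 2 genes is uncertain. Of the 50-base words of the Hspa1a transcript, 58.8% also occurred in the Hspa1b transcript, and the authors' treatment of such reads is not stated. The ratio of Hspa1b to Hspa1a stayed between 1.79 and 2.27 in all 6 libraries. Their summed value was 342.6, 375.6 and 195.1 FPM in KO 1, WT 1 and WT 2, against 17.5, 18.4 and 18.3 FPM in KO 4, KO 5 and WT 4.

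Hsph1, which encodes the Hsp110 protein that exchanges nucleotide on Hsp70, was the next in size of difference among the 10. It (ENSMUSG00000029657.15, chromosome 5, 149614287 to 149636376, minus strand) measured 247.2, 233.9 and 194.4 FPM in KO 1, WT 1 and WT 2, against 82.2, 82.5 and 86.6 FPM in KO 4, KO 5 and WT 4, a ratio of means of 2.69. Hspa8 encodes the constitutive Hsp70 of the cytosol. It (ENSMUSG00000015656.17, chromosome 9, 40800984 to 40810087, plus strand) measured 1351.2, 1104.1 and 1174.2 FPM in KO 1, WT 1 and WT 2, against 1103.2, 828.8 and 908.4 FPM in KO 4, KO 5 and WT 4. The series touched for Hspa8, since WT 1 and KO 4 differed by less than 1 FPM, and the ratio of means was 1.28. Set beside Hspa8 per kb of exon, the summed level of Hspa1a and Hspa1b was 38.2%, 51.2% and 25.0% of the Hspa8 level in KO 1, WT 1 and WT 2. It was 2.39%, 3.34% and 3.04% in KO 4, KO 5 and WT 4. The length used is the union of all annotated exons, 4301 bases for Hspa8 against 2967 for Hspa1a and 2803 for Hspa1b. A union can be longer than the transcript that is made, so that these percentages depend on the annotation. The comparison between libraries does not depend on it.

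The J-domain genes, whose proteins start the ATP cycle of Hsp70, lay between these. Dnajb1 (ENSMUSG00000005483.10, chromosome 8, 83608193 to 83612653, plus strand) measured 241.2, 202.9 and 194.2 FPM in KO 1, WT 1 and WT 2, against 127.3, 108.9 and 125.9 FPM in KO 4, KO 5 and WT 4. Dnaja1 (ENSMUSG00000028410.13, chromosome 4, 40722150 to 40737149, plus strand) measured 442.3, 391.4 and 389.3 FPM in the same libraries of series 22, against 242.5, 220.2 and 246.6 FPM in those of series 24. Their ratios of means were 1.76 and 1.72, and neither gene overlapped between the series. Smu1, on the opposite strand, overlaps the 3′ end of Dnaja1, and the strand setting of the counting is not stated, so that reads there cannot be assigned.

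Of the cytosolic Hsp90 genes, the more inducible one differed more. Hsp90aa1 (ENSMUSG00000021270.13, chromosome 12, 110690605 to 110702728, minus strand) measured 715.9, 659.5 and 633.7 FPM in KO 1, WT 1 and WT 2, against 327.2, 325.8 and 371.6 FPM in KO 4, KO 5 and WT 4, a ratio of means of 1.96. Hsp90ab1 (ENSMUSG00000023944.14, chromosome 17, 45567775 to 45573271, minus strand) measured 841.1, 735.4 and 738.3 FPM in KO 1, WT 1 and WT 2, against 558.9, 489.6 and 526.6 FPM in KO 4, KO 5 and WT 4, a ratio of 1.47. Per kb of exon, the level of Hsp90aa1 was 0.649, 0.684 and 0.655 times that of Hsp90ab1 in KO 1, WT 1 and WT 2, and 0.447, 0.508 and 0.538 times in KO 4, KO 5 and WT 4.

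The mitochondrial chaperonin genes had the smallest differences together with Hspa8. Hspd1, the gene of Hsp60 (ENSMUSG00000025980.14, chromosome 1, 55077835 to 55088243, minus strand), measured 171.7, 159.8 and 157.4 FPM in KO 1, WT 1 and WT 2, against 126.5, 124.2 and 131.2 FPM in KO 4, KO 5 and WT 4. Hspe1, the gene of Hsp10 (ENSMUSG00000073676.4, chromosome 1, 55088132 to 55091307, plus strand), measured 87.0, 72.2 and 80.4 FPM in KO 1, WT 1 and WT 2, against 60.8, 55.8 and 61.3 FPM in KO 4, KO 5 and WT 4. The ratios of means were 1.28 and 1.35. The ratio of Hspd1 to Hspe1 kept between 1.96 and 2.23 in all libraries. The annotated 5′ ends of both genes overlap on opposite strands, and reads there cannot be assigned without strand.

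**Figure D2:**
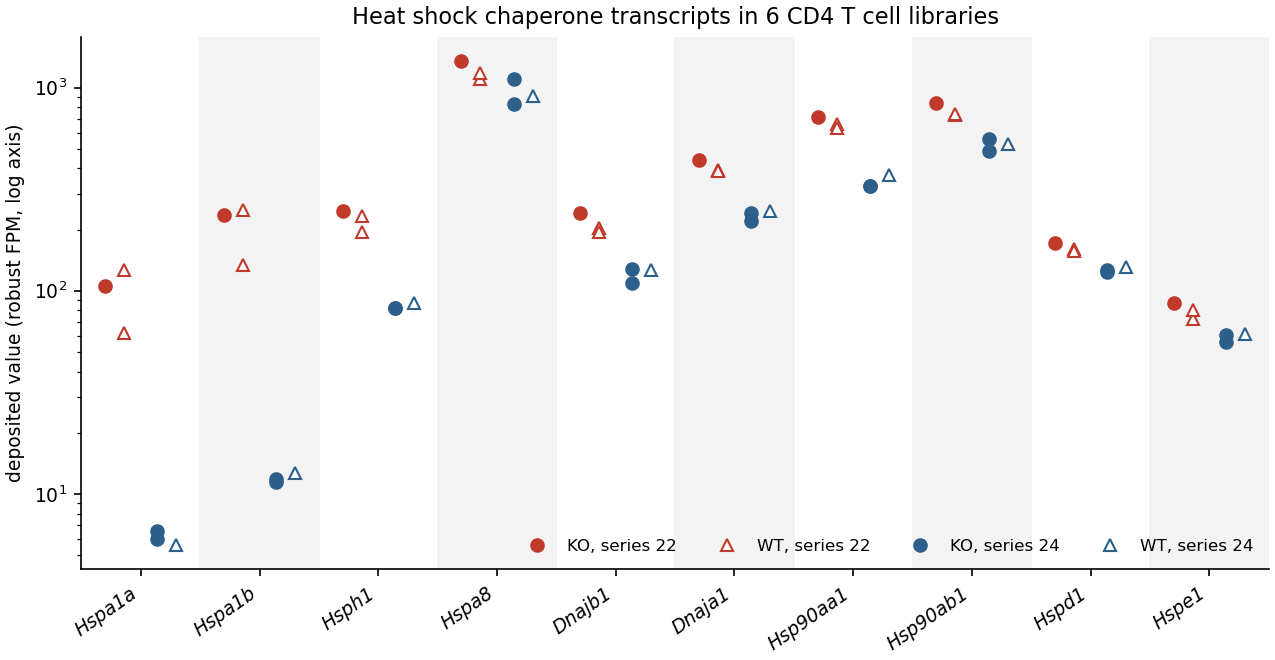
Deposited values (robust FPM, log axis) of the 10 chaperones in each library, with circles for KO and triangles for WT, red for series 22 and blue for series 24. Every red point lies above every blue one of the same gene, by far the most for Hspa1a and Hspa1b, and the WT points of series 22 spread widely for this pair.

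All 10 chaperones had higher values in every library of series 22 than in any of series 24, which held for 6.14% of all genes tested, and nothing is read from that count because the genes were chosen on this contrast. Over all genes, 20 passed as higher and 1 as lower in series 22 by limma (0.134% and 0.00669% of those tested), but 0 in either direction without KO 1 or without WT 4, and 92 higher and 19 lower without WT 1. The 10 genes together took 0.485%, 0.412% and 0.428% of the summed gene values in KO 1, WT 1 and WT 2, against 0.300%, 0.263% and 0.272% in KO 4, KO 5 and WT 4. On the log2 scale, with a genotype term, the differences ran from 0.36 for Hspd1 to 4.04 for Hspa1b. The median was 0.82, against -0.06 over all genes tested. All 10 stayed positive in each alternative processing of these same libraries, with the smallest at 0.27.

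The libraries within a series also differed for the inducible genes. Hspa1a and Hspa1b were 2.04 and 1.87 times as high in WT 1 as in WT 2, and Hsph1 was 1.20 times as high. The other 7 genes stood at 0.898 to 1.04 times. The coefficient of variation within series 22 was 33.6% for Hspa1a and 30.9% for Hspa1b, against 4.70% to 12.2% for the other 8. Within series 24 it was 8.30% and 5.20% for the pair. KO 1 had the highest value of all 6 libraries for 8 of the 10 genes, and WT 1 for Hspa1a and Hspa1b. For genes higher in every library of series 22, this only says that KO 1 lay above WT 1 and WT 2. Of all genes tested, 53.0% had KO 1 above both. KO 5 had the lowest value for 7 of the 10, and the share of all genes was not computed for this. Nothing is read from either count.

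Per kb of exon, the order of levels changed between the series mainly through the inducible pair. Within a series the order depends on the annotation, since the union of exons used, 8629 bases for Dnaja1, can be longer than the transcript that is made. In series 24, Hspa8 was the highest with a mean of 220.1 FPM per kb, followed by Hsp90ab1 at 175.1 and Hsp90aa1 at 86.9. Hspd1 followed at 48.2, Hspe1 at 40.2, Dnajb1 at 37.7, Dnaja1 at 27.4 and Hsph1 at 11.5, and the last places were those of Hspa1b at 4.28 and Hspa1a at 2.04 FPM per kb. Of these neighbours, Hspe1 and Dnajb1 overlapped over the 3 libraries. In series 22, Hspa8 (281.3 FPM per kb) and Hsp90ab1 (257.3) overlapped, Hsp90aa1 stood at 170.4, and Hspa1b came next at 73.6, with a range of 47.5 to 88.9 that overlapped with Dnajb1 at 66.4, Hspd1 at 61.7, Hspe1 and Dnaja1. Hspe1 at 54.2 and Dnaja1 at 47.2 FPM per kb overlapped with each other. Hspa1a at 33.0 and Hsph1 at 31.0 FPM per kb overlapped in the last places.

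The sums of myeloid and of stromal markers were lower in series 22, whereas most single markers overlapped between the series. The summed value of the 12 myeloid markers was 198.4 to 480.9 FPM in series 22 and 536.6 to 1227 FPM in series 24, with 3 of the 12 lower in every library of series 22, as were 14.3% of all genes tested. That of 7 stromal and endothelial markers was 255.4 to 272.3 FPM in series 22 and 280.8 to 306.5 FPM in series 24, with 1 of the 7 lower in every library of series 22. Sums of T cell markers (2395 to 2965 FPM in series 22, 2557 to 2998 FPM in series 24), of CD8 T and NK cell markers (89.5 to 123.9 and 99.2 to 113.1 FPM) and of B cell markers (52.2 to 84.8 and 69.2 to 93.3 FPM) overlapped. So did those of 8 erythroid and platelet markers (7.7 to 9.5 and 4.0 to 8.1 FPM), of which 4 were at 0 in every library. The part of other cells in the chaperone values was not tested.

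Whether the chaperones differed between KO and WT was tested with limma over all genes, with library series as a term. None was called, which does not show that their levels were equal. The same fit left Prmt5 uncalled, at a log2 change of -0.78, although its groups did not overlap. Fewer genes of this fit had an unadjusted p under 0.05 than evenly spread p-values would give. Of the 10 genes, 0 passed in either direction (limma adjusted p = 1 for each), where 0% of the 14944 genes tested were called, and 37 of all genes but 0 of the 10 had an unadjusted p under 0.05. No other tool was run. None of the 10 separated the genotypes completely, and none could. Each was higher in every library of series 22, and both series hold KO and WT libraries. Nothing is read from that count. Over all genes, every KO library was above every WT library for 1.09% and below for 1.79%, together 2.88%. The log2 changes, KO minus WT, lay between -0.02 for Hsp90aa1 and 0.21 for Hspa1a, with a median of 0.08 against 0.01 over all genes. Of the 10, 9 were positive, as were 54.4% of all genes, and this direction depended on the scaling: 1 of the 10 was positive once values were scaled to the ERCC spike-in RNAs, which put the median over all genes at -0.20. With KO 1 left out, so that series 22 holds WT alone, 2 of the 10 were positive.

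The intervals show what sizes the data leave possible. A change of 1.5-fold, up or down, lay outside the 95% interval for 8 of the 10, and for 60.1% of all genes. A 2-fold change lay outside it for all 10, and for 85.1% of all genes. Hspa8 changed by 0.16 on the log2 scale (SE 0.139, 95% interval -0.16 to 0.48), and Hsp90ab1 by 0.09 (SE 0.113, 95% interval -0.17 to 0.35). The 2 genes with wider intervals were Hspa1a, at 0.21 (SE 0.253, 95% interval -0.38 to 0.79), and Hspa1b, at 0.13 (SE 0.241, 95% interval -0.43 to 0.69). Their raw means were lower in KO, at 39.5 ± 57.5 FPM for Hspa1a in KO against 64.6 ± 60.4 FPM in WT (SD, n = 3 each). KO holds 1 library of series 22 and WT holds 2. Without the series term the changes of Hspa1a and Hspa1b were -1.10 and -1.22 and did not pass either (limma adjusted p = 0.977 for both, against 0.663 to 1 for any of the 10 over all fits).

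**Figure D3:**
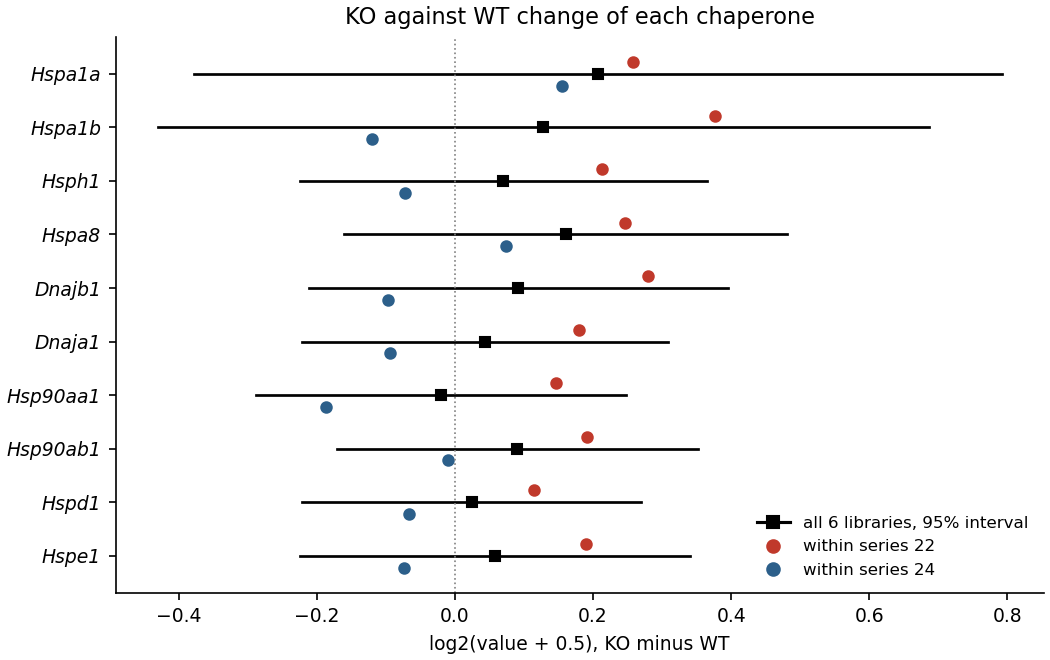
KO minus WT change of each chaperone on the log2(value + 0.5) scale, from the fit to all 6 libraries (black squares with 95% intervals) and within series 22 (red) and series 24 (blue). All intervals include 0, and the red point lies to the right of the blue one for each of the 10 genes. The same order held for 10697 of all 14944 genes tested.

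Within each library series the KO-WT differences were small and often of opposite sign. In series 22, KO 1 lay above both WT libraries for 8 of the 10 genes, as it did for 53.0% of all genes tested. In series 24, both KO libraries lay below WT 4 for 6 of the 10, as for 47.0% of all genes. Both held for 5 of the 10, namely Hsph1, Dnaja1, Hsp90aa1, Hspd1 and Hspe1, against 31.5% of all genes. Hsp90aa1, for example, had a log2 change of 0.15 within series 22 and -0.19 within series 24. The difference of the KO-WT change between series was tested as an interaction over all genes, and limma called 0 of the 10 (smallest adjusted p = 0.678) and 0% of all genes in either direction, with 369 genes at an unadjusted p under 0.05. The fit had 2 residual degrees of freedom. The median interaction was 0.27 for the 10 and 0.21 for all genes.

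The wider chaperone network was followed in 12 gene lists, and 0 members of any list were called between KO and WT (limma adjusted p = 1 for each member), against 0% of all genes. Among other Hsp70 and Hsp110 genes, 9 of 11 were tested. The endoplasmic reticulum protein gene Hyou1 measured 91.8, 85.1 and 91.0 FPM in KO against 63.3, 83.9 and 91.5 FPM in WT, and Hspa12a 3.0, 4.0 and 3.6 FPM in KO against 5.4, 4.1 and 4.1 FPM in WT. Of 39 J-domain genes 37 were tested, with a median change of 0.03, and Dnajc28 (log2 change 0.22) and Dnajc4 (0.18) had the smallest p. The 12 nucleotide exchange factors and Hsp70 partners had a median of 0.06, with Bag1, a nucleotide exchange factor, at 0.15 and Hspbp1, another, at 0.14.

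Among the Hsp90 co-chaperones, all 18 genes of the list were tested, with a median of 0.04. Fkbp4, an immunophilin that binds Hsp90, measured 131.3, 115.8 and 95.6 FPM in KO against 90.5, 109.7 and 107.2 FPM in WT, a log2 change of 0.18, and Unc45a had one of 0.17. The cytosolic TRiC chaperonin and prefoldin genes, which fold actin and tubulin, had a positive change in 14 of 14 with a median of 0.07, led by Cct7 (0.14) and Cct3 (0.12). Proteasome subunits were positive in 29 of 31 with a median of 0.11, with Psmc5 at 0.19 and Psmd3 at 0.15. The shift of all genes under ERCC scaling, given above, was larger than these values. Of all genes tested, 54.4% had a positive change.

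The regulators of the response showed no called change either. Of 7 genes of heat shock factors and regulators, 4 were tested. Hsf2 measured 24.5, 20.7 and 21.6 FPM in KO against 23.5, 23.6 and 25.1 FPM in WT, and Hsbp1, which binds HSF1, had a log2 change of 0.07. Mitochondrial folding and protease genes had a median of 0.07 over 14, with Afg3l2 and Lonp1 at 0.12 and 0.10. Endoplasmic reticulum chaperones and unfolded protein response genes had one of 0.05 over 22, with Creld2 at 0.23 and Pdia6 at 0.21. Of 9 small heat shock protein genes only Hspb6 was tested, at 2.2, 1.4 and 1.2 FPM in KO against 1.2, 1.8 and 0.9 FPM in WT.

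Heat-inducible genes outside the chaperone families had positive KO-WT changes in 11 of 11, with a median of 0.22, where 54.4% of all genes were positive. The direction of so small a median may depend on the scaling, since ERCC scaling put the median over all genes at -0.20. The median of this list was not computed under that scaling. Hmox1, which encodes heme oxygenase and is also high in macrophages, measured 86.6, 82.0 and 107.9 FPM in KO against 23.9, 47.6 and 84.5 FPM in WT, a log2 change of 0.75 that did not pass (limma adjusted p = 1). The 12 myeloid markers summed to 480.9, 536.6 and 1227 FPM in KO and to 198.4, 322.2 and 741.1 FPM in WT. Of these markers, 0 of the 12 were higher in every KO library, as were 1.09% of all genes, a share too low for the count to be read. The part of myeloid cells in the Hmox1 values was not tested. The ubiquitin gene Ubb had a log2 change of 0.29. Immediate early genes had a median change of 0.03 over 22, with Junb at 0.24 and Nfkbia at 0.20.

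Between the library series, most of these lists stayed close to the median of all genes, which was -0.06. The medians were 0.09 for other Hsp70 and Hsp110 genes, -0.09 for J-domain genes, 0.02 for exchange factors, -0.02 for Hsp90 co-chaperones, 0.05 for TRiC and prefoldin, 0.04 for heat shock factors and regulators, -0.01 for endoplasmic reticulum genes, -0.10 for mitochondrial folding genes and -0.03 for proteasome subunits. Heat-inducible genes outside the chaperone families had a median of 0.47 and immediate early genes one of 0.61. Every library of series 22 was above every library of series 24 for 5 of 11 and 15 of 22 of these, against 6.14% of all genes. No test is given, since the lists were set beside genes chosen on this contrast.

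Some single genes of the network had larger series differences. Dnajb4, a J-domain gene that is induced by heat, measured 61.7, 59.7 and 45.4 FPM in KO 1, WT 1 and WT 2, against 26.5, 25.2 and 30.0 FPM in KO 4, KO 5 and WT 4. Hspa5, the Hsp70 of the endoplasmic reticulum, measured 638.7, 502.7 and 567.0 FPM in KO 1, WT 1 and WT 2, against 341.0, 365.6 and 393.1 FPM in KO 4, KO 5 and WT 4. Its J-domain partner gene Dnajb9 had a ratio of series means of 2.28 and the stress transcription factor gene Atf4 one of 1.66. Hsf2 itself stood at 1.06. Gadd45b, a growth arrest and stress gene, was at 2.36, and Rgs2, a regulator of G protein signalling, at 1.86. Among immediate early genes, Fosb measured 42.6, 33.4 and 44.7 FPM in KO 1, WT 1 and WT 2, against 7.0, 15.4 and 14.5 FPM in KO 4, KO 5 and WT 4, and Nr4a2 had a ratio of 3.48. In the other direction, Hmox1 was at 0.576 and Cdc37l1, a relative of the Hsp90 co-chaperone gene Cdc37, at 0.779.

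**Figure D4:**
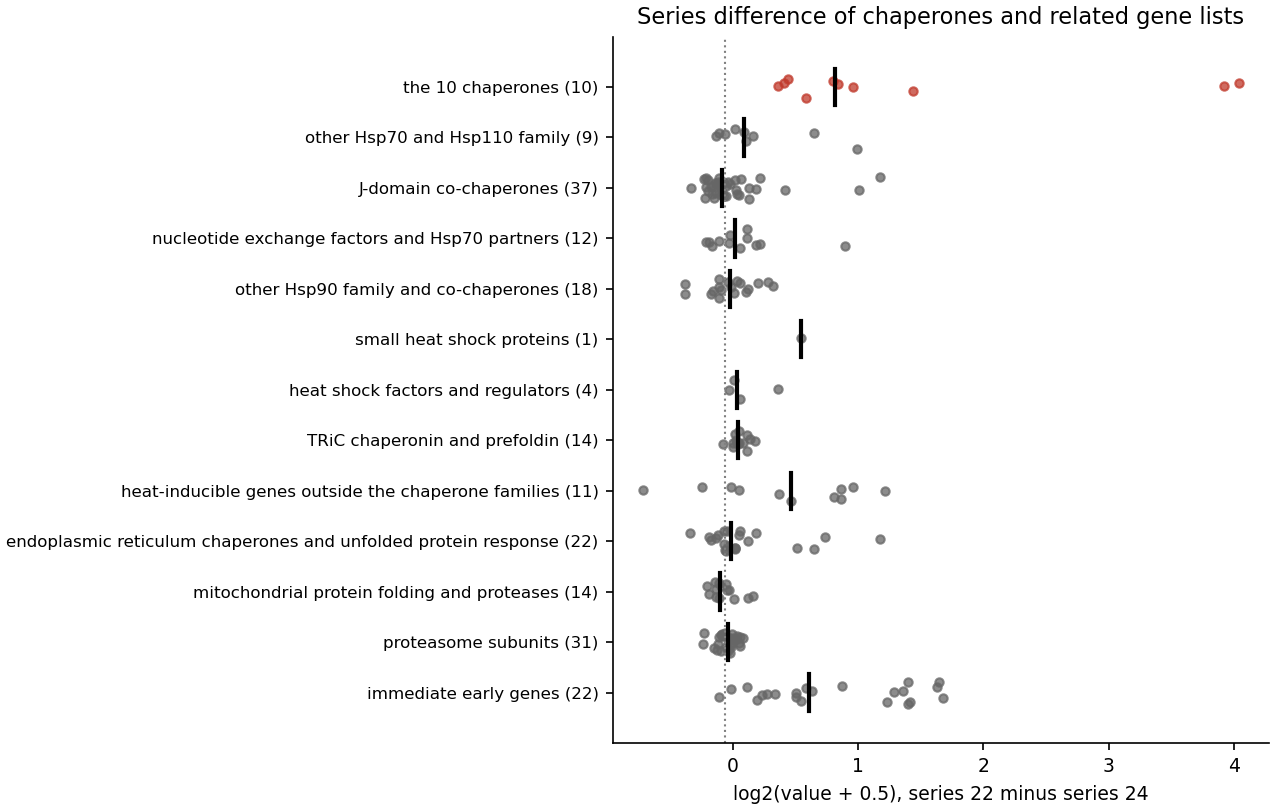
Series 22 minus series 24 difference on the log2(value + 0.5) scale, fitted with a genotype term, for each tested gene of the 10 chaperones (red) and of 12 related lists (grey), with the number of genes in parentheses, black bars at list medians and a dotted line at the median of all genes tested. Hspa1a and Hspa1b stand alone near 4, and of the lists with more than 1 gene, the heat-inducible and immediate early lists have medians furthest to the right after the 10 chaperones.

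The profiles nearest to those of the chaperones were sought by the root mean square difference of log2 values, after each gene was centred on its own mean over the 6 libraries. The distance is not scaled for the size of a gene's differences. Hspa1a was chosen for its series difference, so that nearness to it depends on the size of that same difference, and the neighbours are description only. Hspa1b was the nearest of 14943 genes to Hspa1a, at 0.13. The uncertain division of reads between this pair, given above, can bring their profiles together. The next were at 0.90 or more. Among these were Tnfaip3 (0.90), an inhibitor of NF-kappaB signalling, the kinase gene Plk2 (0.96), Tmem56 (1.02), Gm43581 (1.04), Bambi (1.10), Cd24a (1.12), Nr4a2 (1.15) and Gm48369 (1.16). Tnfaip3 measured 766.9, 493.8 and 612.8 FPM in KO 1, WT 1 and WT 2, against 117.8, 144.5 and 130.8 FPM in KO 4, KO 5 and WT 4.

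Hsp90ab1 had many near neighbours. Outside the 10 genes these included 1810055G02Rik, Rnu12, Taf7 and Taf13, at 0.06 to 0.07. Of the chaperones, Hspe1 ranked 8 by nearness to Hsp90ab1, Hspd1 35, Dnaja1 43, Hspa8 51 and Dnajb1 85. Hsp90aa1 ranked 680 and Hsph1 10838, whereas Hspa1a and Hspa1b ranked 14924 and 14930 of 14943. These ranks depend on the size of the series difference as well as on the pattern over the libraries.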

How the data were processed

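The authors deposited robust FPM, handled here as RPM (not raw counts): a gene's fragments after division by robust size factors, with 1 decimal kept. Per the submitters' processing notes, the tools were featureCounts, STAR, DESeq and DESeq2 (roles and versions not stated) and the build was GRCm38.p3. Libraries were strand-specific per the labels' protocols, but the strand setting of counting and the handling of multimapping reads are not given. Of 54624 rows, 92 were ERCC spike-ins, and 54409 of the 54532 gene rows matched a symbol by identifier. There were 6 further value columns that fit no sample's labels, and they were not used. Whole reads could not be recovered, since a fragment was worth no more than the rounding step.

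The 14944 genes with a mean of 1 or more were analysed as log2(value + 0.5), which understates the change of low genes. Models with genotype and library series, and with their interaction, were fitted in limma (version 3.58.1, R 4.3.3) with the trend option. Tests were two-sided, with Benjamini-Hochberg adjustment over all genes and calls below 0.05. The script was tested on simulated data. The design text calls the samples biological replicates, and p-values measure only the spread between these samples. Exon lengths are unions of GENCODE M21 exons (GRCm38), and start windows are from RefSeq.

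The 10 genes, the lists, the markers and the tests were chosen with earlier results of these data known. From each list the text names up to 2 tested members of smallest p in KO against WT and, as description, up to 2 of largest series difference. Nearest profiles are the 10 genes nearest Hspa1a and the 5 nearest Hsp90ab1 outside the 10, of which some are not reported here. Alternatives changed the pseudocount, filter, model terms, replicate block, scaling, trend, background subtraction and the libraries used. Plots used matplotlib 3.10.9.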

Additional observations from a re-analysis of the deposited data

How the results depend on the processing

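No chaperone was called between KO and WT under any alternative, and the series differences of the 10 genes kept their sign under each. The latter is description only, since the genes were chosen on the series contrast in these same libraries. Without the series term the KO minus WT changes turned negative for Hspa1a (-1.10), Hspa1b (-1.22), Hsph1 (-0.41), Dnajb1 (-0.19), Dnaja1 (-0.22), Hsp90ab1 (-0.10), Hspd1 (-0.10) and Hspe1 (-0.0891). With ERCC scaling they did so for Hspa1b (-0.0813), Hsph1 (-0.15), Hspa8 (-0.0592), Dnajb1 (-0.13), Dnaja1 (-0.18), Hsp90ab1 (-0.13), Hspd1 (-0.19) and Hspe1 (-0.16). Hsp90aa1 turned positive with total-sum scaling (0.0122) and median-of-ratios scaling (0.0158). With a replicate block, Hspa1a (-0.0807) and Hspa1b (-0.11) turned negative, and over all genes limma called 1 higher and 4 lower in KO samples. The numbers 1 and 4, which both groups share, are not stated to mark a shared animal or day, so that the block is not read as a pairing. The deviations of same-numbered libraries correlated at -0.16 and -0.409, which cannot decide the question with so few libraries.

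With 1 library left out at a time, the KO minus WT change ranged from -0.0197 to 0.42 for Hspa1a, -0.12 to 0.38 for Hspa1b, -0.0722 to 0.21 for Hsph1, -0.10 to 0.28 for Dnajb1, -0.0936 to 0.18 for Dnaja1, -0.19 to 0.15 for Hsp90aa1, -0.0096 to 0.19 for Hsp90ab1, -0.0656 to 0.11 for Hspd1 and -0.0731 to 0.19 for Hspe1. The interaction ranged from -0.41 to 0.61 for Hspa1a and from -0.0333 to 0.38 for Hspa8, and it could not be fitted without KO 1 or without WT 4.

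Over all genes, the series contrast gave 48 higher and 6 lower calls with a filter at a mean of 5, 70 and 17 without the genotype term, 7 and 3 with ERCC scaling, 0 and 0 without a trend (where 1159 genes had an unadjusted p under 0.05), and 45 and 5 with background subtraction. At a pseudocount of 0.1 it gave 2 lower calls. Leaving out 1 library gave 0 to 92 higher and 0 to 25 lower calls: 92 and 19 without WT 1, 19 and 25 without KO 4, 8 and 0 without KO 5, 6 and 1 without WT 2, and 0 without KO 1 or WT 4. The interaction gave 4 higher and 4 lower calls with ERCC scaling, where the median interaction of all genes was 0.84, and 0 of the chaperones were among them. The cause of these shifts was not tested. The unknown depth sets no interval from counting error.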

Other observations

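The 12 processed pseudogene rows named for Hspd1, Hspe1 or Dnaja1 measured at most 2.3 FPM in any library, and Hspd1-ps3 was the steadiest of them, at 1.4, 1.6 and 1.5 FPM in KO 1, KO 4 and KO 5, against 2.0, 2.1 and 1.5 FPM in WT 1, WT 2 and WT 4. For most of the others the highest value was in WT 1, the library with the highest level at olfactory and vomeronasal receptor genes. Pseudogenes of the other members carry other names and were not examined. The small nucleolar RNA genes Snord14c, Snord14d and Snord14e, which lie inside Hspa8, were listed at 0 in all 6 libraries.

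The noncoding gene Gm6297 runs in the opposite direction from the start of Dnaja1 and overlaps it. It measured 8.2, 7.6 and 8.7 FPM in KO 1, WT 1 and WT 2, against 5.6, 5.0 and 6.0 FPM in KO 4, KO 5 and WT 4, so that it was higher in each library of series 22, as Dnaja1 was. Reads of the overlap cannot be assigned without strand. Smu1, which overlaps the other end of Dnaja1, measured 118.1, 89.9 and 112.2 FPM in KO 1, WT 1 and WT 2, against 107.8, 98.1 and 111.0 FPM in KO 4, KO 5 and WT 4, and overlapped between the series.

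Several genes often counted among heat shock genes were near the lower end of the scale. Hspb1 measured 0.7, 0.1 and 0.2 FPM in KO 1, KO 4 and KO 5, against 0.4, 0.1 and 0.1 FPM in WT 1, WT 2 and WT 4, and Cryab at most 0.6 FPM. Hspa1l, the relative of Hspa1a and Hspa1b next to them on chromosome 17, measured at most 1.1 FPM, in WT 1. These genes were chosen for mention after their values had been seen.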
